A study of Mus musculus with 8 samples.

Results

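Contractile genes of smooth muscle and pericytes were examined in the subcutaneous fat of diabetic mice given niacin-bound chromium. The 10 genes were Acta2, Actg2, Tagln, Myh11, Cnn1, Des, Smtn, Lmod1, Mylk and Synm. They were taken from a list by name, and every probe set that the platform annotation assigns to exactly 1 gene on that list was used. This gave 17 of the 45037 probe sets that are not array controls. The 10 are among 18193 genes named by such probe sets. The NBC mice (5, 9, 11 and 13) were given niacin-bound chromium (NBC), in which nicotinic acid is bound to chromium, in water at a dose of 10 mg per kg. The placebo mice (6, 8, 10 and 14) received water alone. All 8 animals were male, were 8 weeks old per the labels, and were treated 5 days per week for 10 weeks, with NBC given by gavage. No source used here gives their strain or the cause of their diabetes, and without an arm on niacin or chromium alone the effects of the pair cannot be told apart. Each mouse gave 1 Affymetrix Mouse Genome 430 2.0 array of total RNA.

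Smooth muscle cells surround arteries and veins, and pericytes sit on capillaries. Both contract when calcium-activated myosin light chain kinase (Mylk) phosphorylates the light chain of smooth muscle myosin (Myh11), which then pulls on filaments of the smooth muscle actins Acta2 and Actg2. Tagln, Cnn1, Smtn and Lmod1 encode proteins that bind these filaments, while desmin (Des) and synemin (Synm) form the intermediate filaments of muscle cells. The transcription factor SRF with its coactivator myocardin drives many of these genes from CArG boxes. Desmin and synemin are made in skeletal and cardiac fibres as well.

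Signals are MAS5 intensities on a linear scale, and differences are log2(signal + 26) values of NBC minus placebo mice, a scale on which the change of dim transcripts is understated. Tests covered the brighter part of the array, that is the 22519 probe sets with a mean no lower than the overall median (a signal of about 275). Of the 17 probe sets of the contractile genes, 12 passed this filter and stood for 8 genes. Cnn1 and Lmod1 did not pass. The mean of each array after trimming 2% at each end was 1500.01. Precision is limited by the number of arrays.

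Acta2, Tagln, Myh11 and Mylk had nearly the same mean in NBC and in placebo fat in their brightest probe sets. Desmin differed most among the 12 contractile probe sets above the filter. Its mean signal was 2.9 times higher in NBC mice, and the elevation came from 3 of the 4 NBC mice. The mean in NBC mice was 0.97 (Mylk) to 1.01 (Acta2 and Tagln) times that in placebo mice for Acta2, Tagln, Myh11 and Mylk in their brightest probe sets. It was 1.07 times for Smtn, 1.34 for Actg2 and 1.23 and 1.46 for the Synm probe sets. For Cnn1 and Lmod1, below the filter, it was 0.51 and 0.47 times. The dimmer probe sets gave 0.64 for Acta2 1444105_at, 0.98 for Mylk 1425505_at and 0.73 for Mylk 1425504_at. None of the 12 probe sets passed limma's test after Benjamini-Hochberg adjustment over the 22519 probe sets, of which 0% passed. At an unadjusted p under 0.05 in limma's test there were 2 of 12, Des and Actg2, both higher in NBC. Of all probe sets, 3.28% were higher in NBC at that p, and those lower in NBC are not in this share. The groups overlapped in all 12, whereas 1.79% of all probe sets lay wholly higher in NBC mice and 2.06% wholly lower. The difference lay above 0 in 10 of 12 probe sets (47.9% of all probe sets), but this count ranged from 5 to 11 with 1 mouse left out, with the fewest without placebo mouse 14 and 6 without NBC mouse 11. The median difference was 0.072, against -0.01 over all probe sets. In bulk tissue, fewer cells of a type and less RNA per cell cannot be told apart.

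**Figure D1:**
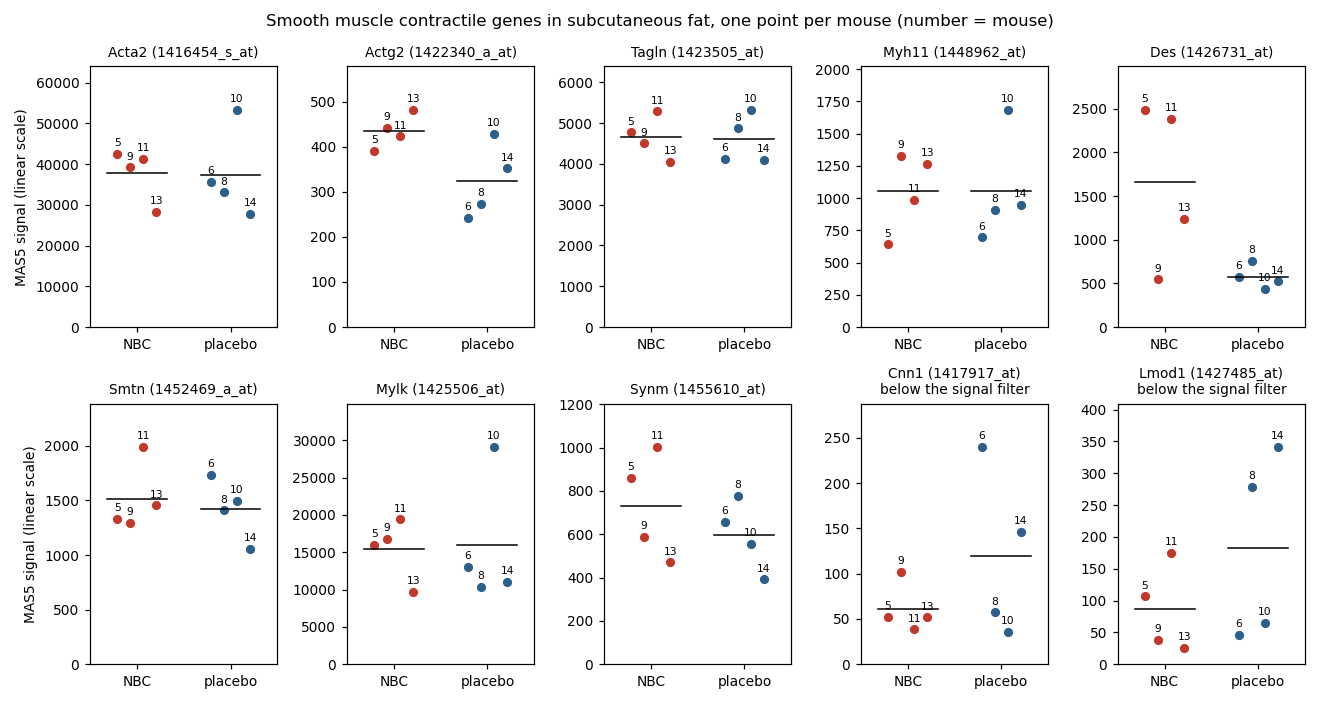
MAS5 signal (linear scale, each axis from 0) of the brightest probe set of each of the 10 genes, with 1 point per mouse, the mouse number above it and a line at the group mean of 4 mice. NBC mice 5, 11 and 13 have high Des signals, NBC mouse 9 lies at the placebo level, and placebo mouse 10 has the highest Acta2, Tagln, Myh11 and Mylk signals.

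Acta2, the actin of vascular smooth muscle and the usual marker of these cells, gave a signal of 42582, 39224, 41284 and 28277 in NBC mice 5, 9, 11 and 13, against 35629, 33059, 53324 and 27719 in placebo mice 6, 8, 10 and 14 (probe set 1416454_s_at). The NBC values lay within the placebo range, with placebo mouse 10 above all others. Means were 37842 ± 6525 in NBC and 37433 ± 11095 in placebo mice (SD, n = 4 each). On the log2 scale they differed by 0.04 (standard error, SE, 0.22, limma adjusted p = 0.982). The suffix _s_at marks a probe set whose probes can match transcripts of more than 1 gene, and actins are close in sequence, so a contribution of other actins to this signal was not tested. The dimmer Acta2 probe set 1444105_at read 308 ± 139 in NBC and 483 ± 338 in placebo mice (SD, n = 4 each), with its highest value, 976, again in placebo mouse 10. Its log2 difference was -0.50 (SE 0.45), and -0.11 without that mouse. The last Acta2 probe set, 1456658_at, lay below the filter, with 14.2 to 152 in NBC and 15.3 to 286 in placebo mice.

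Actg2, the actin of visceral smooth muscle, was dim and lay higher in most NBC mice. It read 391, 443, 423 and 482 in NBC mice 5, 9, 11 and 13, against 243, 273, 429 and 352 in placebo mice 6, 8, 10 and 14. Placebo mouse 10 lay within the NBC range and the other placebo mice below it. Here NBC mouse 9 was not set apart from the other NBC mice. The log2 difference was 0.42 (SE 0.18, limma adjusted p = 0.778, two-sided exact permutation p = 0.0857), where 0.0286 is the smallest p that 4 mice against 4 allow, and 5.09% of all probe sets had a difference at least as high. Without placebo mouse 10 the difference was 0.56 (SE 0.16, limma adjusted p = 0.669).

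Among the proteins that bind actin filaments, transgelin (Tagln) varied least. Its signal was 4781, 4506, 5293 and 4053 in NBC mice 5, 9, 11 and 13, against 4127, 4879, 5329 and 4105 in placebo mice 6, 8, 10 and 14. Both groups spanned about the same range, and the log2 difference was 0.02 (SE 0.14, limma adjusted p = 0.989). Smoothelin (Smtn), found in contractile smooth muscle cells, had 1329, 1297, 1990 and 1454 in NBC mice 5, 9, 11 and 13, against 1738, 1408, 1494 and 1059 in placebo mice 6, 8, 10 and 14. Its highest mouse was NBC mouse 11 and its lowest placebo mouse 14, with a log2 difference of 0.09 (SE 0.19). Calponin (Cnn1), which restrains the myosin ATPase, was dim, at 38.4 to 102 in NBC and 36 to 240 in placebo mice. Leiomodin (Lmod1), which nucleates actin filaments in smooth muscle, was dim as well, at 25.6 to 175 in NBC and 46.4 to 341 in placebo mice. At such signals the highest mouse of a group read at least 2.65 times the lowest, and without the filter neither gene passed (limma adjusted p = 0.93 and 0.934).

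Smooth muscle myosin heavy chain, Myh11 (1448962_at), read 641, 1330, 985 and 1267 in NBC mice 5, 9, 11 and 13, against 697, 907, 1685 and 946 in placebo mice 6, 8, 10 and 14, a log2 difference of 0.02 (SE 0.30). Both groups held low and high mice, and the second Myh11 probe set, 1418122_at, was below the filter with 27.8 to 213 in NBC and 42.9 to 283 in placebo mice. Mylk, the kinase that starts contraction, was read by 3 probe sets. In the brightest, 1425506_at, it had 15982, 16812, 19399 and 9728 in NBC mice 5, 9, 11 and 13, against 13086, 10363, 29114 and 11066 in placebo mice 6, 8, 10 and 14. The placebo group thus held the highest mouse, 10, while its other 3 mice lay within the NBC range, and the log2 difference was 0.05 (SE 0.34, limma adjusted p = 0.986). The other Mylk probe sets gave 0.22 (1425505_at, SE 0.48) and -0.29 (1425504_at, SE 0.36). Placebo mouse 10 was highest in all 3 and in 7 of the 12 contractile probe sets, against 14.4% of all probe sets. Without that mouse the differences were 0.39, 0.71 and 0.09 for 1425506_at, 1425505_at and 1425504_at, and 0.23 for Acta2 and 0.26 for Myh11.

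Desmin, which links the contractile apparatus of all muscle types, gave 2489, 546, 2388 and 1238 in NBC mice 5, 9, 11 and 13, against 576, 758, 439 and 525 in placebo mice 6, 8, 10 and 14 (1426731_at). NBC mice 5, 11 and 13 lay above every placebo mouse, and NBC mouse 9 lay among them. The log2 difference was 1.30 (SE 0.44, limma adjusted p = 0.73, exact permutation p = 0.0857), the 489th smallest p of all probe sets. With NBC mouse 9 left out it was 1.74 (SE 0.28, limma adjusted p = 0.147). In that comparison 0.0799% of all probe sets passed the threshold, 4.61% lay wholly higher in NBC, and Des was the only one of the 12 contractile probe sets to lie wholly higher. For Des this was fixed in advance, because NBC mouse 9 was its only NBC mouse not above every placebo mouse. The other Des probe set, 1426732_at, was below the filter at 20.7 to 235 in NBC and 23 to 353 in placebo mice and did not show this pattern. With the skeletal muscle score described below as a covariate, the Des difference was -0.03 (SE 0.59), but this score was itself high in the same 3 NBC mice, so the covariate and the group can hardly be told apart.

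Synemin, which forms filaments together with desmin, moved less. Its probe set 1455610_at had 861, 588, 1003 and 470 in NBC mice 5, 9, 11 and 13, against 658, 778, 555.4 and 392.4 in placebo mice 6, 8, 10 and 14. Only NBC mice 5 and 11 exceeded the placebo range, and the log2 difference was 0.26 (SE 0.27). The probe set 1457275_at had 1179, 431, 533 and 660 in NBC mice 5, 9, 11 and 13, against 566, 499, 556 and 303 in placebo mice 6, 8, 10 and 14. There NBC mice 5 and 13 lay above the placebo range and NBC mouse 9 was the lowest NBC mouse, as for Des, with a log2 difference of 0.46 (SE 0.31, limma adjusted p = 0.823).

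**Figure D2:**
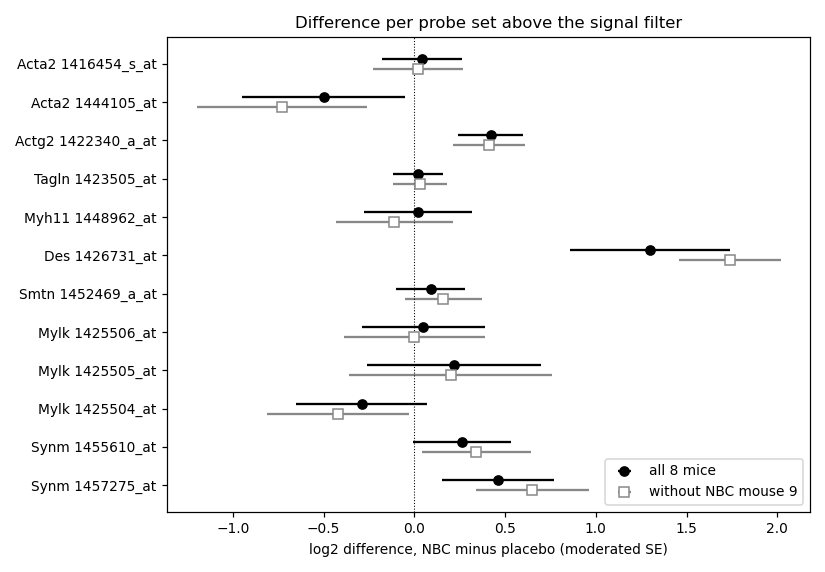
Log2 difference (NBC minus placebo) with its moderated standard error for the 12 contractile probe sets above the filter, over all 8 mice (filled circles) and without NBC mouse 9 (open squares). Des lies at 1.30 and 1.74, and the other 11 lie between -0.50 and 0.46 over all mice.

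The start regions of Acta2 and Des are shown because these are the genes on which the comparison of vascular and skeletal patterns turns. RefSeq's promoter table held 7 of the 10 genes. Each sequence runs from 250 bases before to 50 bases after the RefSeq start on GRCm38.p6, 5′ to 3′ on the gene's strand, and capitals mark motif matches. Acta2 is on the minus strand at chr19:34255324-34255623 and Des on the plus strand at chr1:75360042-75360341.
Acta2: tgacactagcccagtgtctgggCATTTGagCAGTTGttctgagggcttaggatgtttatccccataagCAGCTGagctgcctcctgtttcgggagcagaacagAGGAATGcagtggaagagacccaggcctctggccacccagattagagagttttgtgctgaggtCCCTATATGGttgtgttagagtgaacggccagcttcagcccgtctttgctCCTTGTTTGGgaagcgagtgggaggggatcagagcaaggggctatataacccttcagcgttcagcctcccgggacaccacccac
Des: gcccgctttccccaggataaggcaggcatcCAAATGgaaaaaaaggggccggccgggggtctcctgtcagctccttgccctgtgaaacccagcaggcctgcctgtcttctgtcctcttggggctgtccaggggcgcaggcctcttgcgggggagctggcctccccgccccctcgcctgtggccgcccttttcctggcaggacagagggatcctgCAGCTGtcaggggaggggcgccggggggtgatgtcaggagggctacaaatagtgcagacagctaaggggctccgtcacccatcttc

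The motifs searched on both strands were the CArG box, the same box with 1 inner base off, the E-box CANNTG that myogenic factors bind, the MCAT element CATTCCT and TATAAA. None of the matches shown overlap each other. The Acta2 window held 2 CArG boxes with 1 inner base off, CCCTATATGG starting at -84 and CCTTGTTTGG at -34, where -1 is the base before the start. It also held 3 E-boxes and 1 MCAT element, read on the other strand as AGGAATG at -147. The Des window held 2 E-boxes, at -220 and -36, and no match to the other motifs. Of the 32851 windows in the table, 1.63% held a CArG box, 8.5% one with 1 inner base off, 72.3% an E-box, 5.36% an MCAT element and 13.6% TATAAA. These are matches of letters, not measured binding.

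To set the genes against both kinds of muscle, scores were built from genes outside the 10. The skeletal muscle score is the mean centred log2 value of 10 skeletal muscle genes (among them Ckm, Actn3, Tnnt3 and the skeletal actin Acta1). The smooth muscle score uses 7 genes that were above the filter, the myosin light chain Myl9, Cald1, Ppp1r14a, Itga8, Csrp1, Mrvi1 and Gucy1a1. The eighth, the channel subunit Kcnmb1, was below the filter. The skeletal score was 2.68, -0.82, 2.76 and 2.56 in NBC mice 5, 9, 11 and 13, against -2.37, -1.5, -0.5 and -2.8 in placebo mice 6, 8, 10 and 14. The mice thus fell into separate clusters, so no correlation with this score is given. The smooth score was 0.05, -0.04, 0.23 and -0.18 in NBC mice 5, 9, 11 and 13, against -0.18, -0.11, 0.35 and -0.12 in placebo mice 6, 8, 10 and 14, with placebo mouse 10 highest and the groups overlapping.

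Likeness was therefore described by order. For each probe set, the 28 pairs of mice were compared, and a pair counted when the mouse with the higher score also had the higher signal. The median over all probe sets was 14 for either score. The scores themselves ordered 20 of 28 pairs alike, so a probe set can rank high on both. Among the 7 genes that make up the smooth score, Myl9 ordered 25 pairs as that score. Ppp1r14a, Mrvi1 and Gucy1a1 ordered 21 each, Csrp1 and Itga8 20 each and Cald1 16, so its genes cohered only loosely. Itga8 ordered 22 pairs as the skeletal score. Tagln ordered 25 pairs as the smooth score, Acta2 (1416454_s_at) 24, and Mylk 24 in both 1425506_at and 1425505_at. These 4 of 12 reached 22 pairs, against 5.16% of all probe sets, and the same probe sets ordered 18 to 20 pairs as the skeletal score. The dimmer Acta2 1444105_at and Mylk 1425504_at fell short, with 21 pairs each on the smooth score and 13 and 15 on the skeletal score. The count of 4 depended on how the score was made. With the first principal component of the same genes as the smooth score, Tagln ordered 20 pairs, Acta2 (1416454_s_at) and Mylk 1425506_at 21 each, Actg2 22 and Mylk 1425505_at 25, so that 2 of 12 reached 22 pairs, against 4.73% of all probe sets. Some single markers of other cells followed the mean score about as closely. By list, 2 of 12 pericyte markers (Kcnj8 with 25 pairs and Rgs5 with 23) and 2 of 10 endothelial markers (Cdh5 with 24 and Vwf with 22) reached 22 pairs. So did 1 of 3 epithelial and myoepithelial markers (Oxtr with 25), and none of the 8 fibroblast, 7 adipocyte and 6 macrophage markers did. The mean Oxtr signal was 27558 in NBC and 25682 in placebo mice, against 280 and 364 for the keratin Krt5. Whether the Oxtr signal came from epithelial or myoepithelial cells was not tested. Des ordered 21 pairs as the skeletal and 13 as the smooth score, and 7.56% of all probe sets reached 21 on the skeletal score. Synm 1457275_at had 20 and 14, tied on the skeletal score with Acta2 1416454_s_at and Mylk 1425505_at, while Synm 1455610_at had 19 for each. Actg2 (19 skeletal, 17 smooth), Smtn (18 and 16) and Myh11 (15 and 17) lay nearer the middle. No contractile probe set reached 22 pairs on the skeletal score, which 4.45% of all probe sets did. Placebo mouse 10 had the highest skeletal score of that group and the lowest Des signal of all 8 mice.

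**Figure D3:**
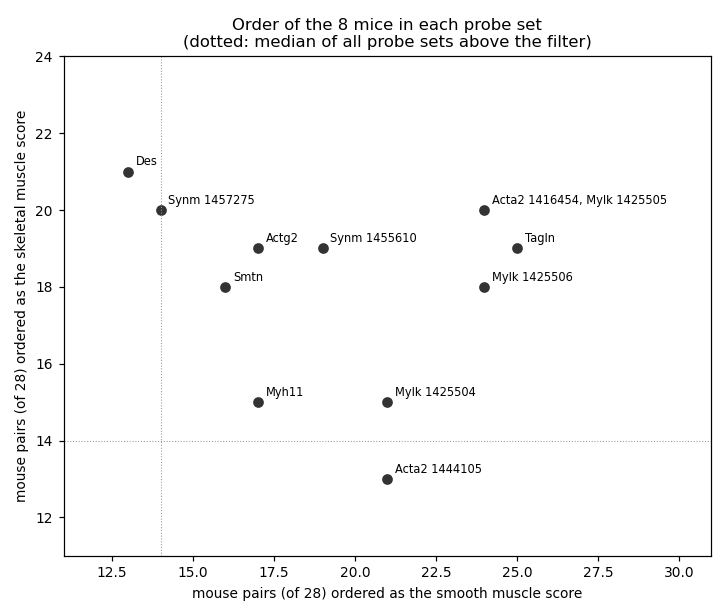
Number of the 28 mouse pairs that each contractile probe set orders as the smooth muscle score (horizontal) and as the skeletal muscle score (vertical), with dotted lines at 14, the median of all probe sets. Tagln, Acta2 1416454_s_at and Mylk 1425506_at and 1425505_at lie to the right at 24 or 25, and Des lies at the upper left with 13 and 21.

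**Figure D4:**
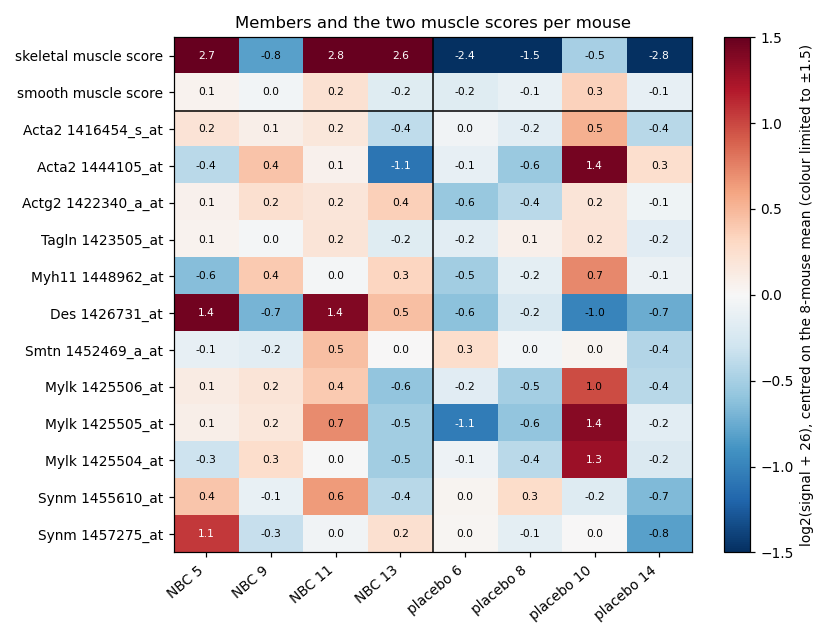
Centred log2(signal + 26) of the 12 contractile probe sets and both scores in each mouse, with NBC mice left of placebo mice and colour limited to ±1.5. The Des row is high in NBC mice 5, 11 and 13 as the skeletal score is, while the Acta2, Myh11 and Mylk rows are highest in placebo mouse 10.

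Whether a gene changed by another amount than Acta2 was tested with the log2 ratio of the gene to Acta2 within each mouse, for all 9 other genes. For Des the ratio was -4.08, -6.10, -4.10 and -4.49 in NBC mice 5, 9, 11 and 13, against -5.89, -5.40, -6.84 and -5.65 in placebo mice 6, 8, 10 and 14. NBC mice 5, 11 and 13 lay above all placebo mice, and NBC mouse 9 lay within their range. The ratio differed by 1.25 (exact permutation p = 0.114, adjusted over the 9 ratios 0.874). With NBC mouse 9 left out it differed by 1.72, with an exact permutation p of 0.0571, the smallest that 3 against 4 mice allow, and 0.514 after adjustment. That p was fixed in advance, because NBC mouse 9 was the only NBC mouse within the placebo range. The difference of the ratio was 0.22 for Synm, 0.38 for Actg2, and between -0.02 and 0.05 for Tagln, Myh11, Smtn and Mylk, with exact permutation p-values from 0.2 to 0.943. Single mice moved these values, to 0.02 for Synm without placebo mouse 10 and to 0.20 for Actg2 without NBC mouse 13. For the dim Cnn1 and Lmod1 it was -0.60 and -0.81 (exact permutation p = 0.4 and 0.314). A change of Des apart from that of Acta2 was not shown at this number of mice.

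The 3′ to 5′ signal ratio of the Gapdh control probe sets, a sign of RNA integrity, was highest in NBC mice 5, 11 and 13, as Des was. It was 1.47, 0.84, 1.28 and 1.11 in NBC mice 5, 9, 11 and 13, against 1.04, 0.92, 0.99 and 0.92 in placebo mice 6, 8, 10 and 14. It ordered 22 of 28 mouse pairs as Des did, a number that 5.72% of all probe sets reached, 21 as the skeletal score and 17 as Acta2. The beta-actin ratio, at 2.10, 1.51, 1.82 and 1.56 in those NBC mice and 1.51 to 1.74 in placebo mice, ordered 18 pairs as Des did, which 23.5% of all probe sets reached. The part of RNA integrity in the desmin signal was not tested.

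The wider machinery of smooth muscle was measured in the same arrays. Of 22 genes of contraction and its control, 18 were above the filter, and 9 lay above 0 and 9 below (median 0.02, against 48.5% above 0 and a median of -0.006 over 11662 genes). None passed the limma threshold. The smallest p belonged to Tpm2, a tropomyosin of slow skeletal and of smooth muscle (0.57, SE 0.24), which read 5131, 4084, 7452 and 8846 in NBC mice 5, 9, 11 and 13, against 3758, 3766, 4755 and 4146 in placebo mice 6, 8, 10 and 14. As with Des, NBC mice 5, 11 and 13 exceeded all placebo mice and NBC mouse 9 did not. Csrp1, a LIM protein of smooth muscle, differed by -0.21 (SE 0.14), the tropomyosin Tpm1 by -0.14 (SE 0.11) and the alpha-actinin Actn1 by 0.15 (SE 0.13).

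Of the 14 genes of SRF and myocardin control, all above the filter, 12 lay above 0 (median 0.10) and none passed. The coactivator Mrtfb differed by 0.28 (SE 0.12), the homeobox factor Prrx1 by 0.22 (SE 0.12), myocardin (Myocd) by 0.40 (SE 0.25), and the zinc finger factor Gata6 by -0.23 (SE 0.16). SRF itself differed by 0.05 (SE 0.19).

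Paralogs of the 10 genes, from skeletal muscle and from non-muscle cells, were compared in the same way. Of 23 listed, 14 were above the filter, 11 of them above 0 (median 0.22), and none passed. The skeletal actin Acta1 gave 26011, 8181, 29408 and 30882 in NBC mice 5, 9, 11 and 13, against 4046, 4118, 11040 and 2408 in placebo mice 6, 8, 10 and 14 (log2 difference 2.19, SE 0.53), with NBC mouse 9 below placebo mouse 10. Acta1 is itself in the skeletal score, so its likeness to that score is not separate support. The fast myosin heavy chains Myh4 and Myh1 differed by 3.71 (SE 0.93) and 1.1 (SE 0.65). The non-muscle heavy chain Myh9 differed by 0.35 (SE 0.13), where NBC mouse 9 (24108) lay below placebo mouse 14 (24566). The widely expressed calponin paralog Cnn3 differed by 0.24 (SE 0.12), and the cytoplasmic actins Actb and Actg1 by 0.04 (SE 0.15) and 0.07 (SE 0.11). Of 14 genes of intermediate filaments and the costamere, the site where muscle filaments attach to the membrane, 10 were above the filter, and 3 lay above 0 and 7 below (median -0.08). Their smallest p-values belonged to the filament linker Plec (0.25, SE 0.13), the sarcoglycan Sgcb (-0.23, SE 0.13), the dystrophin partner Dtna (-0.42, SE 0.30) and nestin, Nes (0.61, SE 0.44). Vimentin (Vim) differed by -0.09 (SE 0.12) and the chaperone Cryab by -0.07 (SE 0.13). Of the genes on this list below the filter, Pdlim3 differed by 1.41 (SE 0.80), the sarcoglycan Sgca by 0.87 (SE 0.47) and Ankrd2 by -0.08 (SE 0.46).

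The label of the list was checked against markers. All 12 pericyte markers were above the filter and none was at 0, 8 lay above 0 (median 0.09), and their summed signal was 48770 to 66773 in NBC and 48648 to 58726 in placebo mice. Over all 11662 genes, 3.93% had groups without overlap in either direction. The growth factor receptor Pdgfrb, which fibroblasts also make, differed by 0.57 (SE 0.13, limma adjusted p = 0.653) without overlap, and the vitronectin gene Vtn by 0.28 (SE 0.19). Among the others with the smallest p-values were Mcam (-0.23, SE 0.15) and Rgs4 (-0.34, SE 0.24), while the pericyte-enriched Rgs5 differed by 0.23 (SE 0.20). All 10 endothelial markers were above the filter, 5 on each side of 0 (median 0), with sums of 29635 to 46448 in NBC and 35263 to 43637 in placebo mice. The 8 fibroblast markers all lay above 0 (median 0.21), the collagens Col1a1 and Col1a2 without overlap, with sums of 240546 to 312964 in NBC and 218762 to 238876 in placebo mice. The 10 skeletal markers summed to 17464 to 161657 in NBC and 5019 to 22662 in placebo mice, with a median of 3.92 and 2 of them, Eno3 and Pvalb, without overlap. None passed over all mice, whereas 7 passed the limma threshold without NBC mouse 9, the NBC mouse with the low skeletal score, where 0.0799% of all probe sets passed. That score is made from these same 10 genes. Leaving out the mouse low in it therefore raises their differences by construction, and the 7 are not separate support. All 6 macrophage markers lay above 0, Csf1r without overlap, with sums of 101905 to 172794 in NBC and 82191 to 122950 in placebo mice. Their median was 0.21, but -0.0048 without NBC mouse 13 and 0.02 without placebo mouse 10. All 7 adipocyte markers above the filter lay below 0 (median -0.06), the lipase gene Lipe without overlap. Of 8 epithelial and myoepithelial markers only 3 were above the filter (median 0.12). The part of these other cell types in the contractile signals was not tested.

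The genes whose order of the mice was most like that of Des and of Acta2 were picked among the named genes above the filter by the number of mouse pairs in the same order over the 8 mice. For Des they were Mcl1, a survival factor of the Bcl-2 family (28 of 28 pairs), the sterol-regulated Insig1, Dennd1b and Tmem147 (27 each), and the kinase gene Camk2a (26). None of these is in the skeletal score, and their log2 differences ran from 0.14 (Tmem147, SE 0.12) to 0.81 (Camk2a, SE 0.51). For Acta2 they were the lactate transporter Slc16a1 (28 pairs), the basement membrane collagen Col4a1, Pigo and the transferrin receptor Tfr2 (27 each), and Gpld1 (26), with differences from -0.01 (Tfr2, SE 0.40) to 0.23 (Slc16a1, SE 0.21). Col4a1 read 82602, 78828, 78354 and 64037 in NBC mice 5, 9, 11 and 13, against 75309, 67227, 88272 and 58693 in placebo mice 6, 8, 10 and 14, highest in placebo mouse 10 as Acta2 was. Because these genes were picked for their order of the mice, such likeness follows from the choice and is not separate support.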

How the data were processed

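Subcutaneous fat of 4 NBC and 4 placebo mice was measured on 1 array per mouse. Per the submitters' processing notes the deposited signal intensity values come from MAS5 (version not stated), and the values themselves show scaling to a common trimmed mean. No source used here names a batch. The platform annotation gave the gene names (1 gene for 34945, several for 932, none for 9160), and 64 control probe sets were left out. The value 26 added before the log is the 10th percentile of all values. A gene was represented by its brightest probe set above the filter. Groups were compared with lmFit and eBayes of limma 3.58.1 (R 4.3.3), without covariates, tested on simulated data, with Benjamini-Hochberg adjustment over 22519 probe sets and a threshold of 0.05. Permutation tests were exact and two-sided. P-values weigh the difference between group means against the spread between mice. The members and gene lists were chosen with earlier results of these data known. The text names all 10 genes, up to 4 genes per other list by smallest p, genes of the paralog list and of both scores, and the 5 genes most like Des and like Acta2; Rgs5, Srf, Vim, Cryab, Kcnj8, Cdh5, Vwf, Oxtr and the genes named for groups without overlap or below the filter were chosen after their values were seen. Alternatives were pseudocounts of 1 and 100, no filter, quantile normalization, a floor at the 20th percentile, the skeletal score as a covariate, the mean of a gene's probe sets, a principal component score, and leaving out each mouse; a limma fit of the ratios to Acta2 was added after seeing the data.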

Additional observations from a re-analysis of the deposited data

Results flagged for a closer look

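Placebo mouse 10 stood apart from the other placebo mice in 2 of the 3 Mylk probe sets, by Dixon's criterion for groups of 4 (the gap to the next mouse as a share of the group's range). It read 29114 in 1425506_at and 1795 in 1425504_at, against 10363 to 13086 and 539 to 686 in placebo mice 6, 8 and 14. In all, 24 groups of 4 values were examined, and about 1 in 20 is flagged by chance.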

How the results depend on the processing

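None of the 12 contractile probe sets passed the limma threshold under any alternative run, and Des and Actg2 kept their direction in all except Des with the skeletal score as a covariate (-0.03). That covariate also turned the sign of Acta2 1416454_s_at (-0.22), Tagln (-0.20), Smtn (-0.23), Mylk 1425506_at (-0.29) and 1425505_at (-0.45), and Synm 1455610_at (-0.16) and 1457275_at (-0.34); the cause was not tested. The mean of all probe sets of a gene gave -0.23 for Acta2 and -0.0041 for Mylk. With 1 mouse left out the difference was 1.03 to 1.74 for Des, 0.31 to 0.56 for Actg2, -0.09 to 0.23 for Acta2 1416454_s_at, -0.78 to -0.11 for Acta2 1444105_at, -0.05 to 0.09 for Tagln, -0.15 to 0.26 for Myh11, -0.05 to 0.19 for Smtn, 0.09 to 0.45 for Synm 1455610_at and 0.18 to 0.65 for 1457275_at. For Mylk it was -0.11 to 0.39 (1425506_at), -0.09 to 0.71 (1425505_at) and -0.47 to 0.09 (1425504_at). The count of probe sets above 0 was 5 to 11, and that without overlap 0 to 1, the 1 being Des without NBC mouse 9 and Actg2 without placebo mouse 10. The ratio to Acta2 ranged from 0.96 to 1.72 for Des, 0.20 to 0.56 for Actg2, 0.02 to 0.41 for Synm, -1.12 to -0.22 for Cnn1, -1.28 to -0.29 for Lmod1, -0.14 to 0.05 for Tagln, -0.26 to 0.26 for Myh11, -0.11 to 0.17 for Smtn and -0.10 to 0.16 for Mylk. A limma fit of the ratio to Acta2 of all 22518 other probe sets, chosen after seeing the data, called 27 of them (0.12%), and none of the 7 contractile genes above the filter besides Acta2 passed (Des 1.25, SE 0.39, unadjusted p = 0.00312, adjusted p = 1.0). Every ratio there shares the Acta2 values, so these tests are not independent of each other. List medians, computed under the pseudocounts, no filter, quantile normalization, the floor and with 1 mouse left out, moved by less than the SD between mice of the list's mean (0.436 for macrophages, whose median ran from -0.0048 to 0.39, and 0.172 for fibroblasts, 0.13 to 0.38). No paired analysis was possible because no mouse number occurs in both groups. Dim probe sets, such as those of Cnn1 and Lmod1, limit what can be said of these genes.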

Other observations

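Of 14 probe sets below the signal filter that belong to 13 genes of the paralog, smooth muscle score and intermediate filament lists, 3 had NBC mice 5, 11 and 13 all above every placebo mouse, as Des had, and these were picked out after their values were seen. Among the probe sets above the filter, 4.61% had these mice above every placebo mouse. The share among all dim probe sets was not computed, so the count is a description only. Of the 14 dim probe sets, 9 had a log2 difference above 0 and 5 below, among these the striated muscle genes Mylk3 (-0.59, SE 0.43), Smtnl1 (-0.32, SE 0.35) and Actc1 (-0.31, SE 0.16), and Myh2 differed by 0.09 (SE 0.54). The myosin light chain kinase paralog Mylk4 read 549, 9.1, 703 and 1324 in NBC mice 5, 9, 11 and 13, against 61.7, 168, 20.1 and 48.2 in placebo mice 6, 8, 10 and 14. The leiomodin paralog Lmod2 read 198, 41.3, 215 and 161 in those NBC mice and 6.3 to 56 in placebo mice. The Z-disc gene Pdlim3 read 486, 63.6, 750 and 819 in those NBC mice and 39 to 292 in placebo mice. NBC mouse 9 lay within the placebo range for Lmod2 and Pdlim3 and below it for Mylk4. The kinase paralog of skeletal muscle, Mylk2, was not set apart in that mouse, with 445, 386, 363 and 500 in NBC mice 5, 9, 11 and 13, against 56, 240, 88.7 and 400 in placebo mice 6, 8, 10 and 14. Mylk4, Lmod2, Pdlim3 and Mylk2 did not pass the limma threshold when no filter was applied (adjusted p from 0.709 to 0.919).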
